A study of Homo sapiens with 12 samples.

Results

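Interferon-stimulated genes are genes whose transcription is raised by interferons, and 49 of them were followed here by their symbols across 4 treatments of a breast cancer cell line. Of the 49, 45 had an entry in the table of counts and 39 were expressed highly enough to be tested, among 12451 entries and 11303 tested genes in all. A gene was tested where RPKM (reads scaled to exon length and library size) was at least 1 in at least 3 libraries. RSAD2, CMPK2, IFI44L and TRIM22 were not analysed here. The members were taken by symbol from a list of interferon-stimulated genes that was chosen with earlier results of these data known. Shares and medians set beside those of all genes are therefore descriptions. Of the 39, OAS1 and OAS2 reached the minimum in E2 and E2+ TNFα libraries only, PARP14 in vehicle libraries only, and IFIH1 in 2 vehicle and 2 E2+ TNFα libraries only, so the filter itself bears on the comparisons in which these genes are high.

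The cells were MDA-MB-231-ERβ, a triple negative breast cancer (TNBC) line in which doxycycline (dox) turns on full length estrogen receptor beta (ERβ). All 12 libraries came from cells kept with dox in charcoal-stripped serum, so every group, vehicle included, was induced to express ERβ and no library without dox was compared. The 4 groups of 3 libraries were vehicle, 1 nM of the ERβ ligand estradiol (E2), 20 ng/ml tumor necrosis factor alpha (TNFα) and E2+ TNFα, where E2 or vehicle was present for 5 days and TNFα for the last 3 h. The dishes were plated in triplicate. The study describes its in vitro work as done in biological replicates and its sequencing as corrected for batches, but the labels name no batch and do not say whether the 3 libraries of a group were separate experiments, so p-values measure the spread between these libraries, which may be technical. The study asked how ERβ alters the response to TNFα, a cytokine that activates NFκB, and the same groups are compared here for the interferon-stimulated genes.

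Type I and type III interferons bind receptors at the cell surface that act through the kinases JAK1 and TYK2. These kinases phosphorylate STAT proteins, among them STAT2, which joins IRF9 in the complex ISGF3, and ISGF3 binds the interferon-stimulated response element (ISRE) in promoters. Another element, known as GAS, is used in the response to interferon gamma. IRF1 also binds ISRE-type sequences, and its own gene is a known target of NFκB. The induced proteins include sensors of viral RNA, enzymes that degrade RNA, IFIT proteins that bind viral RNA ends, the ubiquitin-like protein ISG15 with its conjugation enzymes, membrane proteins that hinder virus entry or release, and the pathway's own transcription factors and inhibitors.

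Promoter sequences of 37 of the 45 genes were found in RefSeq (GRCh38.p14), and 8 genes had no entry. Each ran from 250 bases before to 50 bases after a RefSeq start, which is not always the start of the counted gene. The ISG20 window printed below, for example, lies inside the counted gene, which begins at base 88635622. The letters of the ISRE core (GAAA, any pair of bases, then GAAA) were present in 22 of the 37 promoters (59.5%), compared with 996 of 27305 promoters of the same length (3.65%). GAS letters, TTCNNNGAA, were found in 9 of the 37 (24.3%) and in 7.88% of all promoters. A κB motif was present in 8 of the 37 (21.6%) and in 10.8% of all promoters, and the palindromic estrogen response element (GGTCA and TGACC around any 3 bases) in 0 of the 37 and in 18 of the 27305. All were searched on both strands, and a stretch may match more than 1 motif. A match is a description of the letters and not a site of binding, and a window without a match says nothing about a factor.

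The sequences below are printed 5′ to 3′ along the gene, with the matched letters in capitals. They cover the genes with an entry that were past the thresholds in E2+ TNFα relative to TNFα. The transcription factor IRF9, which stayed under the fold threshold there, is added. HERC5 and BST2 are printed as genes that carried the ISRE letters without reaching the thresholds in that comparison. Where the ISRE core lies on the other strand it reads as TTTC, a pair of bases and TTTC.
ISG15, ISRE core 107 bases before the start, chr1:1013370-1013419, + strand: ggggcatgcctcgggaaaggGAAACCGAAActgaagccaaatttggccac
IFIT1, ISRE core 116 bases before the start, chr10:89392487-89392536, + strand: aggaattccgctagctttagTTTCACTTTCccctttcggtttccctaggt
IFIT3, ISRE core 122 bases before the start, chr10:89327855-89327904, + strand: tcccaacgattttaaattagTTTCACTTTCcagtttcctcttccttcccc
ISG20, ISRE core 69 bases before the start, chr15:88638927-88638976, + strand: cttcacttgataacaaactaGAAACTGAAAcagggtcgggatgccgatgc
IFI27, ISRE core 108 bases before the start, chr14:94110608-94110657, + strand: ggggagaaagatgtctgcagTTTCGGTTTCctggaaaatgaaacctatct
OAS1, GAS 168 bases before the start, chr12:112906774-112906822, + strand: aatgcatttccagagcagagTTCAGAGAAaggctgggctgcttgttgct
IRF9, GAS 63 bases before the start, chr14:24161182-24161230, + strand: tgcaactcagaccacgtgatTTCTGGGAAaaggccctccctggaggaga
IRF1, GAS 124 bases before the start, chr5:132490869-132490917, - strand: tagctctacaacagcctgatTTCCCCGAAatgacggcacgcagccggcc
IRF1, κB motif 50 bases before the start, chr5:132490794-132490843, - strand: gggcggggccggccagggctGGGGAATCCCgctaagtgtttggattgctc
HERC5, ISRE core 74 bases before the start, chr4:88457025-88457074, + strand: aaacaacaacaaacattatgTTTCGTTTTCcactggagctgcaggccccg
BST2, ISRE core 130 bases before the start, chr19:17405731-17405780, - strand: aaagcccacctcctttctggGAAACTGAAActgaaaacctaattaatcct

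The vehicle libraries stood apart from the rest. Spearman correlations of counts between vehicle and other libraries were 0.706 to 0.863, whereas those between libraries of different groups without vehicle were 0.928 to 0.989 and those between replicates 0.973 to 0.998. Changes relative to vehicle followed exon GC content (Spearman correlation over 11303 genes of 0.655 for E2, 0.706 for TNFα and 0.665 for E2+ TNFα), which was much weaker for E2+ TNFα when compared with TNFα (-0.210) or with E2 (-0.331). Because all 3 vehicle libraries lie on the same side, this trend and the treatment cannot be told apart in any comparison with vehicle, and the comparisons without vehicle are given first. Exon length had a correlation of 0.459 with the change in E2+ TNFα relative to E2, larger in size than in the comparisons with vehicle (-0.376 to -0.314), and of 0.0497 in E2+ TNFα relative to TNFα. Library totals were 7652016 to 39943664 counts, lowest in E2. ESR2, which encodes ERβ, had 485, 455 and 473 CPM (counts scaled to TMM-normalized library size) in vehicle, 281, 254 and 228 in TNFα, 322, 304 and 292 in E2 and 432, 404 and 507 in E2+ TNFα. The E2+ TNFα libraries were thus above the TNFα and E2 libraries in ESR2, and its part in the changes below was not tested. Of the 7 tested markers of this line, VIM (1040 to 1666 CPM), CD44 (720.0 to 1682), AXL (1145 to 1887), CAV1 (152 to 444), KRT8 (629 to 4069), KRT18 (415 to 2514) and FN1 (874 to 5646) were found in every library. Several differed between TNFα and E2+ TNFα, with mean CPM of 899 and 5183 for FN1, 1043 and 2954 for KRT8, 1039 and 1450 for KRT18, 189 and 394 for CAV1 and 1641 and 1035 for CD44. ERBB2 had 85.6 to 123 CPM. Among markers of immune and stromal cells, CD14 had at most 1.89 CPM, CSF1R 3.06 and COL1A1 12.8, LYZ had at most 0.362 in TNFα and 1.59 to 2.90 in E2+ TNFα, and the other 5 of the 9 markers were not analysed here, nor were ESR1 and PGR. In these bulk samples, a smaller share of cells that express a gene and less RNA per cell cannot be told apart.

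The 45 genes together took 0.151% to 0.154% of the counts in vehicle, 0.217% to 0.224% in TNFα, 0.255% to 0.260% in E2 and 0.256% to 0.268% in E2+ TNFα. The ranges of E2 and E2+ TNFα overlapped, and those of the other groups did not. Per length, the levels of a gene differed much between groups. ISG15 had means of 106 RPKM in vehicle, 225 in TNFα, 864 in E2 and 782 in E2+ TNFα, and IFITM3 of 196, 529, 761 and 533. IRF1 had means of 4.42, 106, 8.33 and 34.3 RPKM in the same order. The lowest means over the 12 libraries were those of IFIH1 (0.841 RPKM), OAS2 (1.02) and PARP14 (1.11).

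**Figure D1:**
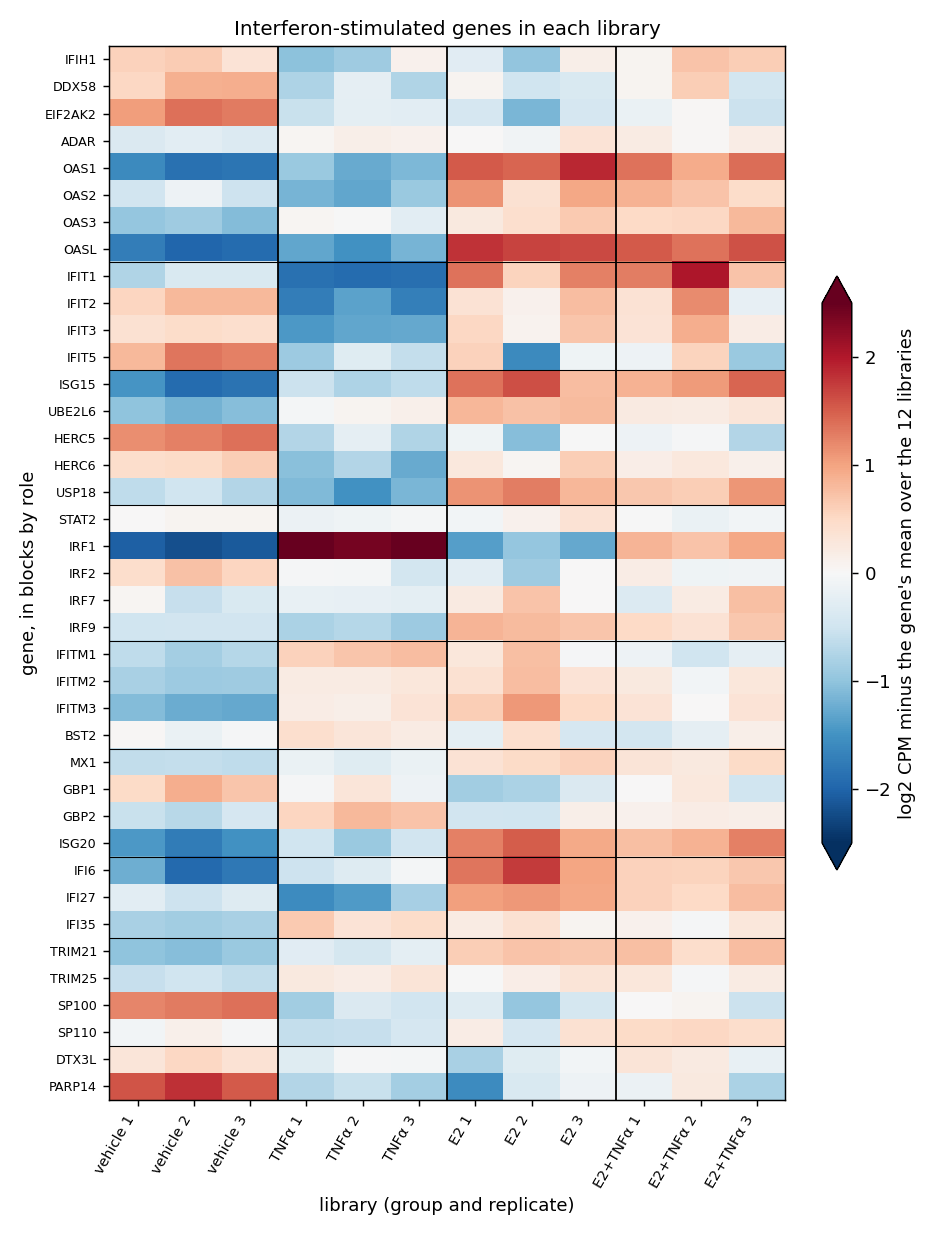
The 39 tested interferon-stimulated genes (rows, in blocks by role) in the 12 libraries (columns), coloured by log2 CPM minus the mean of the gene over the 12 libraries. Many OAS, IFIT and ISG15-related genes are higher in E2 and E2+ TNFα than in TNFα, IRF1 is highest in TNFα, and a group with EIF2AK2, IFIT5, HERC5, SP100 and PARP14 is highest in vehicle.

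In cells with TNFα, E2 raised genes of the OAS, IFIT and ISG15 groups and lowered IRF1. Of the 39 genes, 10 were higher in E2+ TNFα than in TNFα (OAS1, OAS2, OASL, IFIT1, IFIT2, IFIT3, ISG15, USP18, ISG20 and IFI27) and 1 was lower (IRF1). All passed the thresholds of the study, namely a log2 fold change of at least 1.5 in size, p below 0.05 and an adjusted p of at most 0.1, in the quasi-likelihood F test of edgeR. The thresholds were passed by 3.55% of all tested genes in the higher direction and by 2.01% in the lower. OAS1 and OAS2 are counted as descriptions, since they passed the filter only through libraries with E2. The median log2 fold change was 0.54 for the 39 genes and 0.04 for all genes tested. At an adjusted p of at most 0.1, whatever the fold, 19 of the 39 were higher and 5 lower (24.4% and 21% of all tested genes).

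Of the 4 oligoadenylate synthetase genes, 3 rose past the thresholds. The enzymes OAS1, OAS2 and OAS3 sense double-stranded RNA and make the signal that activates the ribonuclease RNase L, and OASL is a relative without that activity that acts on RNA sensing. OASL had 15.7, 13.6 and 17.3 CPM in the 3 TNFα libraries and 113, 99.9 and 116 in the 3 E2+ TNFα libraries. These groups were far apart, and OASL rose 7.07-fold (log2 fold change of 2.82 ± 0.13 SE, adjusted p = 3.5e-10). OAS1 had 1.84, 1.47 and 1.61 CPM in TNFα and 8.95, 6.67 and 9.21 in E2+ TNFα. All E2+ TNFα libraries lay above all TNFα libraries, with a rise of 5.03-fold (2.33 ± 0.23). OAS2 had 3.65, 3.32 and 4.31 CPM in TNFα and 15.1, 13.5 and 11.2 in E2+ TNFα, again without overlap (3.53-fold, log2 fold change of 1.82 ± 0.23). OAS1 and OAS2 passed the filter only through E2 and E2+ TNFα libraries, where they are high, so their values are descriptions. Over OAS2, 35.1% of the windows of 50 bases are shared with the overlapping gene OAS3, so that their counts are not fully separate. OAS3 itself was higher by a log2 fold change of 0.69 ± 0.14 (adjusted p = 0.0012), under the fold threshold.

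Of the 4 IFIT genes, which lie side by side on chromosome 10 and encode proteins that bind viral RNA, 3 rose past the thresholds. IFIT1 had 4.47, 4.27 and 4.41 CPM in TNFα and 39.2, 65.8 and 26.5 in E2+ TNFα. The E2+ TNFα libraries varied by more than 2-fold among themselves, yet each was well above TNFα, and IFIT1 rose 9.99-fold (log2 fold change of 3.32 ± 0.30, adjusted p = 5.3e-07), the most of the 39 genes. IFIT2 had 3.88, 5.08 and 3.89 CPM in TNFα and 16.5, 29.1 and 11.1 in E2+ TNFα. Its groups did not overlap, and the change was 4.39-fold (2.14 ± 0.30, adjusted p = 4.6e-05). IFIT3 had 9.07, 9.90 and 10.1 CPM in TNFα and 31.2, 46.3 and 28.0 in E2+ TNFα. It was higher in every E2+ TNFα library, by 3.64-fold (1.86 ± 0.19, adjusted p = 2.3e-06). The second replicate of E2+ TNFα was the highest of its group for all 3 genes. IFIT5, the remaining gene of the cluster, had 4.60, 6.97 and 5.66 CPM in TNFα and 7.90, 12.6 and 4.52 in E2+ TNFα, with overlapping groups (0.54 ± 0.40, adjusted p = 0.31).

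ISG15 is a ubiquitin-like protein, and UBE2L6, HERC5 and HERC6 belong to the enzymes that attach proteins of this kind to their targets, while USP18 removes ISG15 and also inhibits the interferon receptor. ISG15 had 162, 138 and 150.5 CPM in TNFα and 431, 488 and 645 in E2+ TNFα. The lowest E2+ TNFα library was above every TNFα library, and ISG15 rose 3.47-fold (1.80 ± 0.20, adjusted p = 5.3e-06). USP18 had 1.64, 1.24 and 1.61 CPM in TNFα and 5.62, 5.38 and 7.57 in E2+ TNFα. The groups did not overlap, and the rise was 4.15-fold (2.05 ± 0.24, adjusted p = 8.0e-06). Of the USP18 windows, 48.6% occur in genes elsewhere, so reads of its copies may be counted for it. HERC6 was higher with an adjusted p of 5.4e-04 and a log2 fold change of 1.17 ± 0.21, under the fold threshold. For the conjugating enzyme UBE2L6 (0.20 ± 0.11, adjusted p = 0.16) and the ligase HERC5 (0.26 ± 0.26, adjusted p = 0.45), no difference was detected.

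ISG20, an exonuclease that degrades RNA, had 23.8, 17.6 and 23.9 CPM in TNFα and 56.3, 61.6 and 80.0 in E2+ TNFα. It rose 3.03-fold (1.60 ± 0.18, adjusted p = 5.3e-06), without overlap. The log2 fold change of ISG20 lay near the threshold and fell to 1.44 without the second TNFα replicate or without the third E2+ TNFα replicate. IFI27, a small membrane protein of mitochondria and the nuclear envelope, had 12.7, 14.1 and 21.2 CPM in TNFα and 56.0, 53.0 and 64.5 in E2+ TNFα. All libraries of the groups were separate, and IFI27 rose 3.63-fold (1.86 ± 0.17, adjusted p = 6.3e-07).

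IRF1, the transcription factor that binds ISRE-type sequences, went the other way. It had 385, 356 and 391 CPM in TNFα and 123, 111 and 132 in E2+ TNFα. Every E2+ TNFα library was below every TNFα library, by 3.09-fold (log2 fold change of -1.63 ± 0.12, adjusted p = 5.3e-08). In E2 without TNFα the values were 26.3, 34.6 and 28.1 CPM and in vehicle 16.5, 14.9 and 15.8. IRF1 was thus higher with TNFα both with and without E2, its level with TNFα was lower where E2 was present, and its level without TNFα was higher in E2 than in vehicle. That rise in E2 relative to vehicle was not past the thresholds. In the same comparison, tested genes of similar exon GC content (53.0% to 59.0%) had a median log2 fold change of 0.66. Of the IRF1 windows, 10.9% are shared with the antisense gene IRF1-AS1.

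**Figure D2:**
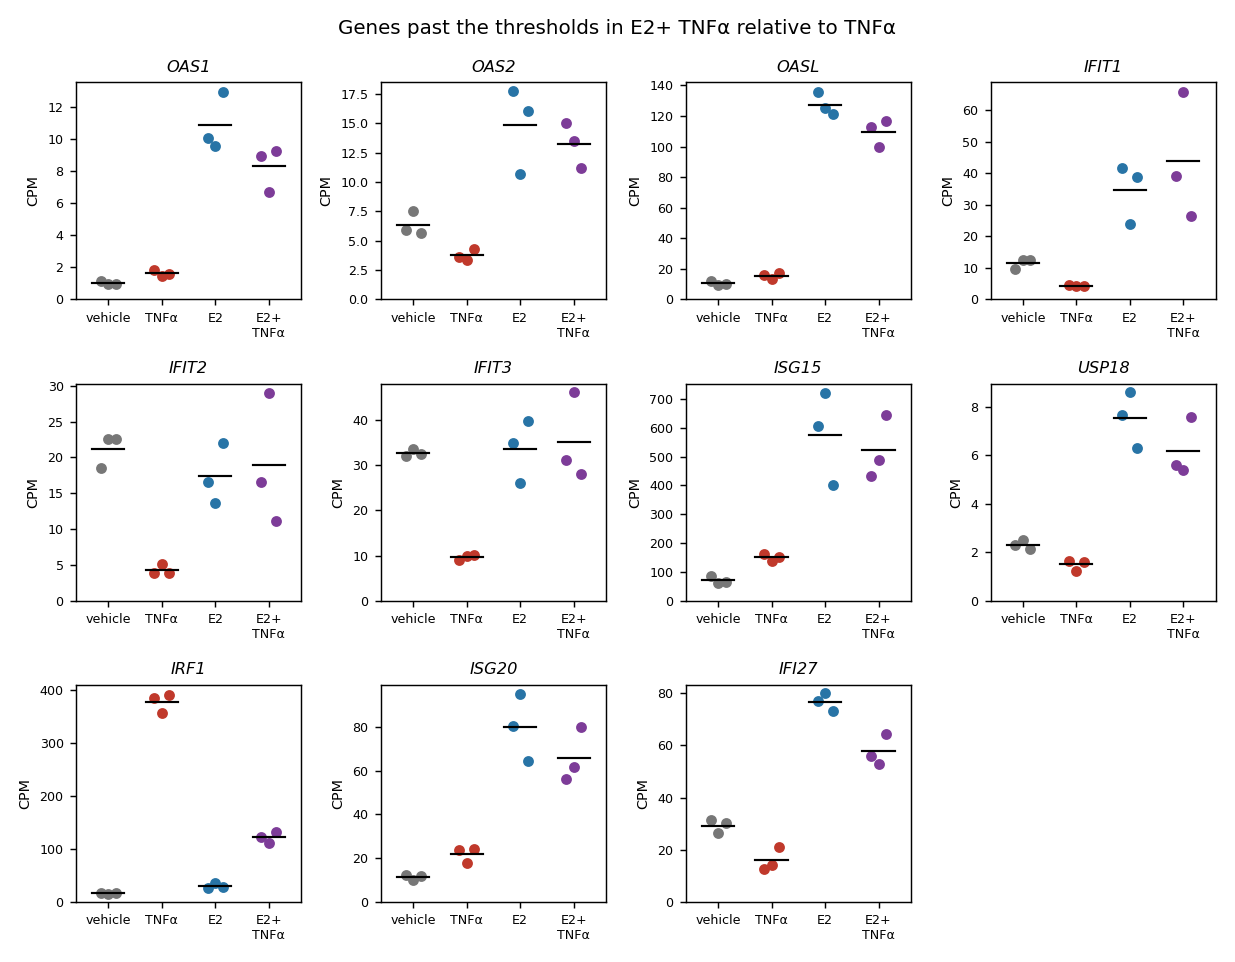
CPM (linear axes from 0) of the 11 genes past the thresholds in E2+ TNFα relative to TNFα, with a point for each library and a line at the mean of the 3 libraries of a group. The E2 and E2+ TNFα points lie above the TNFα points in 10 genes, while IRF1 is highest in TNFα (356 to 391 CPM) and intermediate in E2+ TNFα (111 to 132 CPM).

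Further genes passed the adjusted p in E2+ TNFα relative to TNFα without reaching the fold threshold. They were higher for the RNA sensors IFIH1 (log2 fold change of 1.03 ± 0.32, adjusted p = 0.019) and DDX58 (0.70 ± 0.25, adjusted p = 0.040), which detect viral RNA in the cytosol. IFIH1 passed the filter only with its E2+ TNFα libraries counted, so its value is a description. The groups overlapped for IFIH1 and DDX58, and 93.9% of the DDX58 windows are shared with an overlapping gene. They were also higher for MX1, a GTPase that blocks viruses (0.56 ± 0.12, adjusted p = 0.0021), IFI6, which resides in mitochondria and the endoplasmic reticulum (0.90 ± 0.22, adjusted p = 0.0047), TRIM21, an antibody receptor of the cytosol (0.98 ± 0.13, adjusted p = 2.4e-05), and the nuclear body protein SP110 (1.01 ± 0.21, adjusted p = 0.0013). Lower values were found for the membrane protein IFITM1, which hinders virus entry (-0.96 ± 0.18, adjusted p = 6.8e-04), the tethering protein BST2 (-0.47 ± 0.20, adjusted p = 0.073), the GTPase GBP2 (-0.53 ± 0.17, adjusted p = 0.022) and IFI35 (-0.37 ± 0.16, adjusted p = 0.076). None of the 4 genes of the IFITM and tetherin group was higher at the adjusted p. The editing enzyme ADAR (0.04), IFITM2 (-0.07), IFITM3 (0.01), the kinase EIF2AK2 (0.14), GBP1 (-0.10), the ubiquitin ligases TRIM25 (-0.09) and DTX3L (0.25), SP100 (0.41) and PARP14 (0.54) had log2 fold changes with an adjusted p above 0.1.

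The 5 transcription factors did not move together. IRF9, the DNA-binding part of ISGF3, had 15.5, 16.2 and 14.3 CPM in TNFα and 37.5, 34.2 and 42.7 in E2+ TNFα. The groups did not overlap, and the log2 fold change of 1.31 ± 0.13 (adjusted p = 1.1e-06) stayed under the fold threshold. Of the IRF9 windows, 90.9% are shared with an overlapping gene. STAT2, its partner in ISGF3, had 40.1, 41.5 and 43.2 CPM in TNFα and 43.9, 39.6 and 42.7 in E2+ TNFα, with overlapping groups (0.02 ± 0.12, adjusted p = 0.94). IRF7, which amplifies interferon production, had 11.6, 11.5 and 11.3 CPM in TNFα and 10.4, 15.2 and 22.4 in E2+ TNFα. The E2+ TNFα libraries of IRF7 ranged around those of TNFα (0.49 ± 0.26, adjusted p = 0.15). IRF2, which competes with IRF1 for its binding sequence, had 11.3, 11.2 and 8.41 CPM in TNFα and 13.1, 10.7 and 10.9 in E2+ TNFα (0.16 ± 0.21, adjusted p = 0.57).

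In the promoters, the ISRE letters were present in 5 of the 6 genes with a promoter entry that rose past the thresholds (IFIT1, IFIT3, ISG15, ISG20 and IFI27), and in 14 of the 24 with an entry that did not pass them. OAS1, the sixth that rose, held only the GAS letters, and IRF1 held GAS and κB letters. These counts are descriptions, since OAS2, OASL, IFIT2 and USP18 had no promoter entry.

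Where E2 was already present, few genes of any kind passed the thresholds with TNFα. In E2+ TNFα relative to E2, 1 of the 39 genes was past the thresholds, IRF1, which was higher (0.389% of all tested genes were higher and 0.0177% lower). The median log2 fold change was -0.01 for the 39 genes and 0.01 for all genes tested. IRF1 had 26.3, 34.6 and 28.1 CPM in E2 and 123, 111 and 132 in E2+ TNFα. The groups did not overlap, and the change was 4.15-fold (log2 fold change of 2.05 ± 0.13, adjusted p = 7.1e-08). At an adjusted p of at most 0.1, whatever the fold, 1 gene was higher and 4 were lower (2.65% and 3.34% of all tested genes).

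The 4 lower genes were UBE2L6, IFITM1, IFITM3 and IFI6. UBE2L6 had 96.9, 90.2 and 94.8 CPM in E2 and 64.1, 62.6 and 67.6 in E2+ TNFα, with tight groups that did not overlap (-0.54 ± 0.11, adjusted p = 0.019). IFITM3 had 459, 640.2 and 427 CPM in E2 and 382, 304 and 383 in E2+ TNFα (-0.51 ± 0.15, adjusted p = 0.078). IFITM1 changed by -0.64 ± 0.18 (adjusted p = 0.074), and 48.8% of its windows are shared with an overlapping gene. IFI6 had 30.9, 40.9 and 24.2 CPM in E2 and 18.4, 18.0 and 19.4 in E2+ TNFα (-0.77 ± 0.22, adjusted p = 0.072). Their exons are short (1743, 717, 668 and 860 bases for UBE2L6, IFITM1, IFITM3 and IFI6), and with GC and length trends removed UBE2L6 alone stayed at an adjusted p of at most 0.1 (-0.36, adjusted p = 0.043), compared with -0.30 for IFITM1 (adjusted p = 0.18), -0.17 for IFITM3 (adjusted p = 0.27) and -0.45 for IFI6 (adjusted p = 0.102). With an unwanted factor from housekeeping genes removed, all 4 stayed at an adjusted p of at most 0.1. The values were -0.53 for UBE2L6 (adjusted p = 0.0025), -0.53 for IFITM1 (adjusted p = 0.040), -0.38 for IFITM3 (adjusted p = 0.033) and -0.65 for IFI6 (adjusted p = 0.043). For the 10 genes that rose in E2+ TNFα relative to TNFα, the log2 fold changes relative to E2 lay between -0.41 ± 0.16 (IFI27, adjusted p = 0.19) and 0.32 ± 0.27 (IFIT1, adjusted p = 0.55), none past the adjusted p. The comparisons of E2+ TNFα with TNFα and with E2 share the E2+ TNFα libraries.

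**Figure D3:**
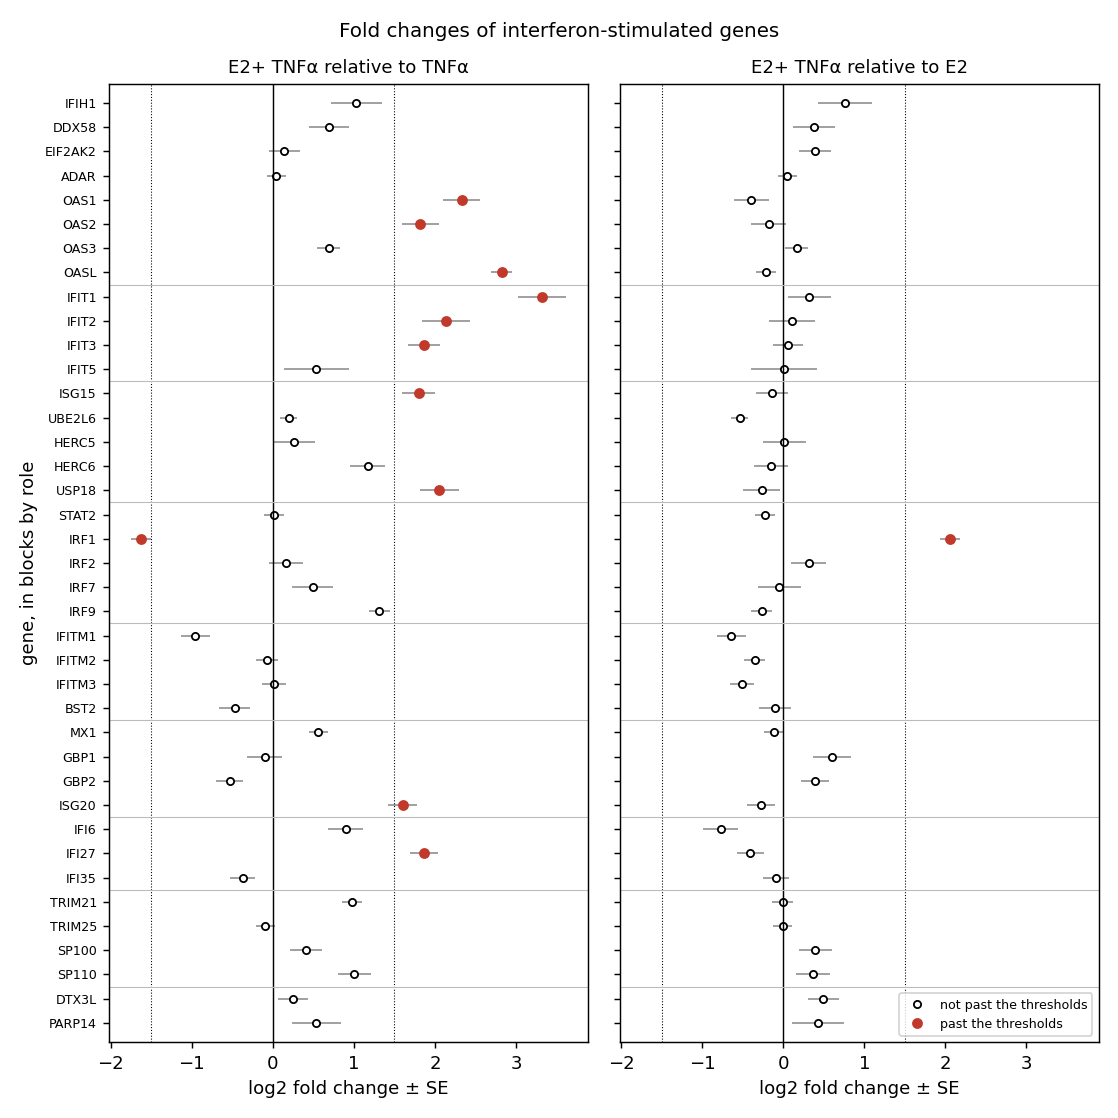
Log2 fold change ± SE (horizontal axis) of the 39 tested genes (vertical axis, in blocks by role) in E2+ TNFα against TNFα (left) and against E2 (right), with filled points for genes past the thresholds and dotted lines at the fold threshold of 1.5. On the left 10 genes lie to the right of the threshold and IRF1 to the left, and on the right IRF1 alone passes it.

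Relative to vehicle, the same genes were mixed, and the values moved with exon GC content. In E2 relative to vehicle, 10 of the 39 were higher and 4 lower past the thresholds (9.87% and 20.6% of all tested genes), with a median log2 fold change of 0.73 (-0.02 for all genes). The 10 were OAS1, OASL, IFIT1, ISG15, UBE2L6, USP18, IFITM3, ISG20, IFI6 and TRIM21, and the 4 were EIF2AK2 (the kinase PKR, which stops translation), HERC5, SP100 (a nuclear body protein) and PARP14 (an ADP-ribosyltransferase). PARP14 passed the filter only through the vehicle libraries, where it is high. Its place among the lower genes in each comparison with vehicle, and its interaction below, are therefore descriptions. OASL had 11.7, 9.77 and 10.2 CPM in vehicle and 136, 125 and 121 in E2, and the groups were far apart (log2 fold change of 3.59 ± 0.14, adjusted p = 2.0e-11). OAS1 had 1.16, 0.960 and 0.982 CPM in vehicle and 10.0, 9.56 and 12.9 in E2 (10.5-fold, log2 fold change of 3.39 ± 0.24). These 2 of the 14 genes stayed past the thresholds in each of the 16 alternative settings, whereas the other 12 did not in at least 1. OAS1 passed the filter only through libraries with E2, where it is high, so its place among the higher genes is also a description. ISG15 had 84.9, 61.7 and 65.6 CPM in vehicle and 605, 721 and 402 in E2 (3.02 ± 0.21, adjusted p = 1.1e-08), a log2 fold change that was 0.90 with an unwanted factor from housekeeping genes removed.

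In TNFα relative to vehicle, 1 of the 39 was higher and 7 were lower (6.64% and 20% of all tested genes), with a median log2 fold change of -0.14 (0.01 for all genes). IRF1 rose from 16.5, 14.9 and 15.8 CPM in vehicle to 385, 356 and 391 in TNFα. This was 23.9-fold (4.58 ± 0.14, adjusted p = 3.1e-12), and IRF1 stayed past the thresholds in all 16 alternatives, between 3.68 and 4.62. The 7 lower genes were EIF2AK2, IFIT2, IFIT3, IFIT5, HERC5, SP100 and PARP14, and none of them stayed past the thresholds in every alternative. PARP14 is again given as a description. IFIT2 had 18.6, 22.6 and 22.5 CPM in vehicle and 3.88, 5.08 and 3.89 in TNFα. With GC and length trends removed, its log2 fold change of -2.31 ± 0.30 became -0.88, and with an unwanted factor from housekeeping genes removed it turned to 1.03 (adjusted p = 0.22). With that factor removed, IFIT5 turned to 3.00 (adjusted p = 0.023). HERC5 (0.78), EIF2AK2 (0.39), SP100 (0.12) and IFIT3 (0.0836) also changed sign, and of the 7 only PARP14 stayed negative (-0.37). For HERC5, EIF2AK2, SP100, IFIT3 and PARP14 the adjusted p in that setting was 0.44 to 0.93, so no difference in either direction was detected.

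In E2+ TNFα relative to vehicle, 9 of the 39 were higher and 2 lower (7.52% and 17.6% of all tested genes), with a median log2 fold change of 0.71 (-0.03 for all genes). The higher genes were OAS1 (as a description), OAS3, OASL, IFIT1, ISG15, IRF1, ISG20, IFI6 and TRIM21, and the lower were HERC5 and, as a description, PARP14. OAS1 (2.99), OASL (3.37), IFIT1 (1.93) and IRF1 (2.95) stayed past the thresholds in all 16 alternatives, and the other 7 did not. The 3 comparisons with vehicle share its libraries, so their overlap is not read as a result.

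EIF2AK2, SP100, PARP14, HERC5 and IFIT5 were highest in vehicle. IFIT5 had 15.2, 21.8 and 20.5 CPM in vehicle and 12.9, 2.87 and 8.04 in E2, beside its values in TNFα and E2+ TNFα given above. EIF2AK2 had 41.1, 51.6 and 49.0 CPM in vehicle, 13.6, 16.9 and 16.5 in TNFα, 14.9, 9.08 and 15.0 in E2 and 17.9, 20.3 and 13.8 in E2+ TNFα. The 9 libraries outside vehicle overlapped between groups. SP100 had 43.8, 46.4 and 48.9 CPM in vehicle, 10.4, 14.7 and 13.6 in TNFα, 15.0, 9.56 and 13.9 in E2 and 18.8, 19.6 and 13.0 in E2+ TNFα. PARP14 had 20.4, 24.2 and 19.8 CPM in vehicle, 4.11, 4.66 and 3.79 in TNFα, 2.32, 5.26 and 6.32 in E2 and 6.23, 8.14 and 3.95 in E2+ TNFα. HERC5 had 18.7, 19.9 and 21.6 CPM in vehicle, 5.03, 7.17 and 4.99 in TNFα, 7.72, 3.98 and 8.31 in E2 and 7.65, 8.14 and 4.996 in E2+ TNFα. No library outside vehicle reached the vehicle values of these genes. The exon GC content of the 39 genes spanned 37.5% to 67.0% with a median of 50.9% (49.9% for all tested genes). When all tested genes were split by GC content into 5 bins of equal size, the bin with the lowest content held 2261 genes with a median log2 fold change of -1.91 in E2 relative to vehicle, and its 7 interferon-stimulated genes had a median of -1.02. The part of GC content in the differences from vehicle was not tested apart from the settings with its trend removed.

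**Figure D4:**
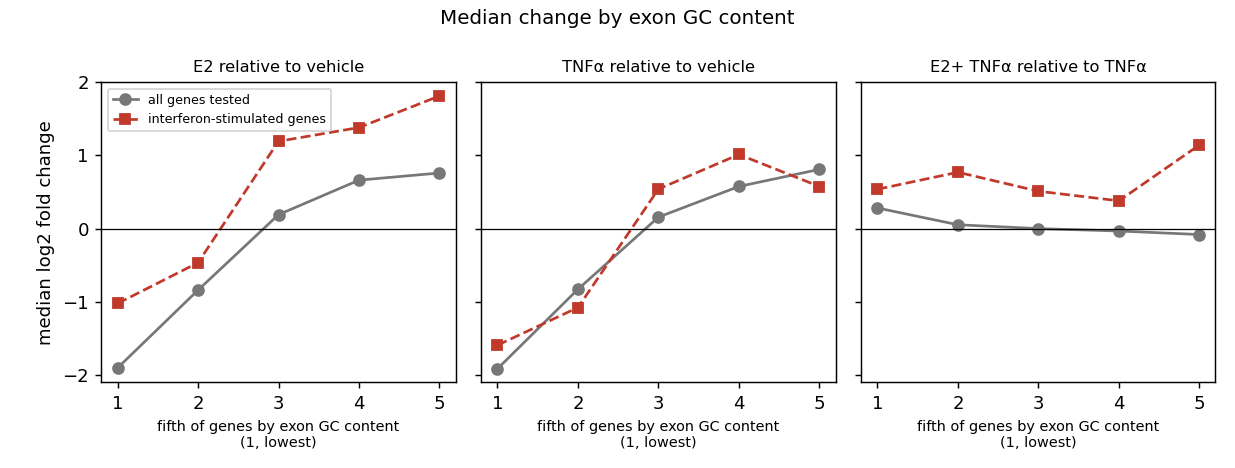
Median log2 fold change of all tested genes (grey circles) and of the interferon-stimulated genes (red squares) in 5 bins of genes by exon GC content, from the lowest (1) to the highest (5), for 3 comparisons. Relative to vehicle, both medians are negative in bins 1 and 2 and positive in the others, while in E2+ TNFα relative to TNFα those of all genes stay within -0.08 to 0.28 and those of the interferon-stimulated genes, of which bin 5 holds only 2, lie at 0.38 to 1.14.

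The interaction of E2 and TNFα, the change with TNFα in E2 libraries minus that in vehicle libraries, was past the thresholds for 15 of the 39 genes, with 10 positive and 5 negative (22.5% and 9.29% of all tested genes). IRF1 was the only one of the 15 that stayed past the thresholds in all 21 alternatives. Its rise with TNFα was smaller in E2 libraries, with an interaction of -2.53 ± 0.17 (adjusted p = 6.6e-08), between -2.59 and -1.55 over the alternatives.

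The 10 positive genes were IFIH1, DDX58, EIF2AK2, IFIT1, IFIT2, IFIT3, IFIT5, HERC5, SP100 and PARP14, with interactions of 1.71 to 2.78. PARP14 passed the filter only through vehicle libraries, and IFIH1 only through vehicle and E2+ TNFα libraries, so their values are descriptions. With an unwanted factor from housekeeping genes removed, 7 of the 10 turned negative, at -1.33 for DDX58, -0.16 for EIF2AK2, -1.91 for IFIT1, -1.26 for IFIT2, -0.19 for IFIT3, -3.40 for IFIT5 and -0.97 for HERC5. Only IFIT1 (adjusted p = 0.027) and IFIT5 (adjusted p = 0.020) were negative at the adjusted p used, while the others of the 7 had 0.15 to 0.87. The main values of the 7 relative to vehicle were lower in TNFα, and 3 of the 7, IFIT1, IFIT2 and IFIT3, were past the thresholds in E2+ TNFα relative to TNFα. IFIH1 had 6.10, 6.35 and 5.17 CPM in vehicle, 2.01, 2.22 and 4.41 in TNFα, 3.35, 2.07 and 4.51 in E2 and 4.26, 6.70 and 6.22 in E2+ TNFα. DDX58 had 23.6, 30.4 and 31.0 CPM in vehicle, 9.60, 14.1 and 9.76 in TNFα, 17.1, 11.6 and 12.6 in E2 and 17.3, 25.0 and 11.997 in E2+ TNFα. For both RNA sensors the TNFα libraries lay below the vehicle libraries, and the E2 and E2+ TNFα libraries overlapped. In vehicle, IFIT1 had 9.60, 12.4 and 12.5 CPM and IFIT3 32.0, 33.7 and 32.6. In E2, IFIT1 had 41.6, 23.9 and 38.9 CPM, IFIT2 16.5, 13.7 and 21.9 and IFIT3 35.0, 26.1 and 39.9, which for each gene overlapped the values in E2+ TNFα. With GC and length trends removed, 1 interaction was positive and 2 were negative past the thresholds among the 39 genes, and 7.25% and 6.43% of all tested genes. With the unwanted factor removed, these counts were 1 and 4, and 6.84% and 5.96% of all tested genes.

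The 5 negative genes were UBE2L6 (-1.66 ± 0.15), IRF1, IFITM1 (-2.04 ± 0.26), IFITM3 (-1.94 ± 0.21) and IFI6 (-2.09 ± 0.31). UBE2L6 had 27.3, 24.2 and 26.3 CPM in vehicle and 53.0, 57.2 and 59.4 in TNFα, so that it was higher with TNFα without E2 and lower with TNFα in the presence of E2. IFITM1 had 12.9, 11.1 and 12.3 CPM in vehicle, 29.7, 32.1 and 34.1 in TNFα, 24.5, 33.6 and 19.7 in E2 and 18.2, 14.1 and 17.2 in E2+ TNFα. IFITM3 had 142, 128 and 124 CPM in vehicle and 344, 334 and 382 in TNFα. IFI6 had 5.23, 3.19 and 3.56 CPM in vehicle and 8.52, 9.77 and 11.8 in TNFα. For these 4 genes every TNFα library was above every vehicle library, and every E2+ TNFα library was below every E2 library. With GC and length trends removed, UBE2L6, IFITM1, IFITM3 and IFI6 came to -0.74, -1.09, -0.86 and -1.06, under the fold threshold. With an unwanted factor from housekeeping genes removed, IFITM1 came to -0.76, IFITM3 to -0.48 and IFI6 to -0.82 (adjusted p = 0.42, 0.48 and 0.50), while UBE2L6 stayed past the thresholds.

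The pathway around these genes was followed with 66 more genes in 6 lists, of which 50 were tested. Of the ligands, IFNL1 (interferon lambda 1, a type III interferon) was the only 1 in the table and the other 9 were not analysed here. IFNL1 had 0.193, 0.0937 and 0.0873 CPM in vehicle, 0.197, 0.391 and 0.208 in TNFα, 0.752, 0.637 and 0.542 in E2, and 2.59, 2.83 and 3.32 in E2+ TNFα. Every E2+ TNFα library was above every other library, but these are low counts, at most 12 in any library outside E2+ TNFα and up to 111 in it. IFNL1 passed the filter only through the E2+ TNFα libraries, where it is high, so its differences from the other groups are given as a description, with no test. Its log2 fold change was 3.41 relative to TNFα and 2.16 relative to E2.

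Among receptors, 0 of 6 passed the thresholds in E2+ TNFα relative to either TNFα or E2. Of all tested genes, 3.55% were higher and 2.01% lower past the thresholds relative to TNFα, and 0.389% and 0.0177% relative to E2. At an adjusted p of at most 0.1, 2 were higher and 3 lower relative to TNFα, and 2 were higher and 0 lower relative to E2, beside the shares of all tested genes at that adjusted p of 24.4% and 21% relative to TNFα and 2.65% and 3.34% relative to E2. IFNAR2, a chain of the type I receptor, had 19.9, 22.2 and 23.2 CPM in TNFα, 22.3, 27.2 and 29.9 in E2 and 39.5, 37.6 and 42.1 in E2+ TNFα. The receptors did not move together. Mean CPM in TNFα and E2+ TNFα was 93.5 and 47.3 for IFNGR2, 68.5 and 52.4 for IL10RB and 8.33 and 5.72 for IFNLR1, without overlap. It was 25.0 and 30.1 for IFNAR1 and 9.94 and 15.6 for IFNGR1. Of the JAK kinases, 1 of 2 tested passed the thresholds in E2+ TNFα relative to TNFα (3.55% of all tested genes were higher and 2.01% lower). JAK1, the kinase of these receptors, had 123, 133 and 127 CPM in TNFα and 414, 411 and 325 in E2+ TNFα (1.59 ± 0.14, adjusted p = 2.9e-07). In E2 it had 337, 327 and 379 CPM and in vehicle 232, 316 and 281, so TNFα was the lowest group.

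Of the 6 inhibitors of interferon signalling, 1 was higher and 1 lower in E2+ TNFα relative to TNFα, where 3.55% and 2.01% of all tested genes were. CISH, an inhibitor of STAT signalling, had 0.789, 1.17 and 0.675 CPM in TNFα and 8.64, 8.94 and 12.9 in E2+ TNFα (3.50 ± 0.32). SOCS3, which blocks JAK kinases, had 64.4, 55.2 and 69.0 CPM in TNFα and 20.6, 17.3 and 23.8 in E2+ TNFα (-1.61 ± 0.15, adjusted p = 5.5e-07). Both genes were separate between the groups, and SOCS3 came to -1.498, just under the fold threshold, without the second E2+ TNFα replicate. Of the 10 sensors and adaptors upstream of interferon, 0 passed the thresholds in either comparison. Relative to E2, 0.389% of all tested genes were higher and 0.0177% lower past the thresholds, so a count of 0 there is near that share. Of 25 further interferon-induced genes, 2 were higher relative to TNFα, the GTPase MX2 (1.85 ± 0.26) and the helicase-like DDX60 (1.80 ± 0.50, adjusted p = 0.010), and 0 relative to E2. CISH and MX2 reached the RPKM minimum in E2 and E2+ TNFα libraries only, where they are high, so their values are descriptions. DDX60 reached it in vehicle libraries only. DDX60 had 0.592, 0.814 and 0.675 CPM in TNFα and 2.53, 2.90 and 1.91 in E2+ TNFα, and 8.32, 12.5 and 10.1 in vehicle.

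**Figure D5:**
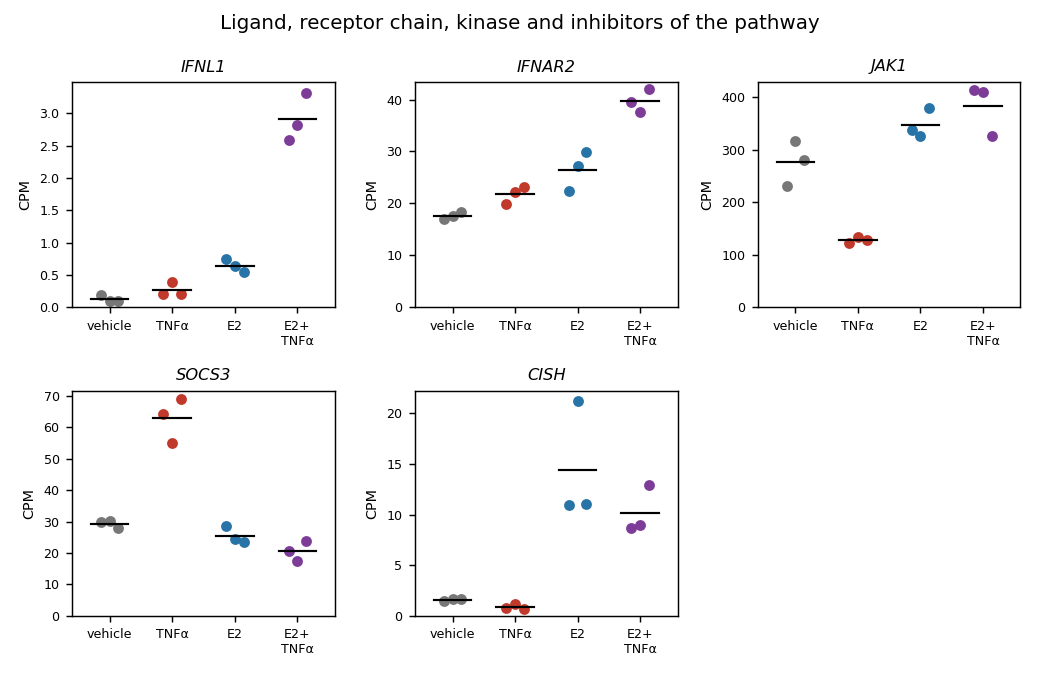
CPM (linear axes from 0) of the ligand gene IFNL1, the receptor chain IFNAR2, the kinase JAK1 and the inhibitors SOCS3 and CISH, with a point for each library and a line at the mean of each group. IFNL1 and IFNAR2 are highest in E2+ TNFα, and JAK1 and SOCS3 differ between TNFα and E2+ TNFα in opposite directions. IFNAR2 was named after its values were seen, and other receptors, not drawn, are lower in E2+ TNFα than in TNFα.

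SAMD9, SAMD9L, IFI44, XAF1, EPSTI1 and PARP9 had entries but too few reads per length to be tested. IFI44 had 1.95, 1.71 and 1.55 CPM in vehicle, at most 0.0986 in TNFα, where no library had more than 3 counts, 0.181 to 1.09 in E2 and 0.359 to 1.47 in E2+ TNFα. SAMD9 had 0.104 to 0.261 CPM in TNFα and 1.08 to 4.85 in E2+ TNFα. SAMD9L had at most 0.261 CPM in TNFα, 0.271 in E2 and 0.594 in E2+ TNFα, and 1.42 to 1.69 in vehicle. XAF1 had 5.56 to 6.25 CPM in vehicle and 1.26 to 4.10 in the other libraries. EPSTI1 (0.796 to 2.27 CPM) overlapped between all groups. PARP9 had 1.87 to 3.65 CPM in TNFα, below the 4.10 to 5.96 in E2 and the 4.26 to 7.02 in E2+ TNFα, and 3.18 to 4.36 in vehicle.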

How the data were processed

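RNA from 12 libraries of MDA-MB-231-ERβ cells was sequenced by the authors with a stranded mRNA kit. Per the submitters' processing notes and the study's methods, reads were aligned to hg38 with TopHat2 2.1.0 and counted per gene with featureCounts, and the deposited values are raw counts per gene. The study removed unwanted variation with RUVseq, which is not in the deposited counts. The table held 12567 entries, and 12451 were kept after dropping 46 that repeated another row exactly and 70 listed under a second symbol for the same locus. Sample groups and replicate numbers were taken from the sample titles.

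Tests between groups used edgeR 4.0.16 in R 4.3.3 (quasi-likelihood fit and F test), with TMM normalization, 4 group means and all 12 libraries, for the 11303 genes whose RPKM reached 1 in 3 or more libraries. RPKM and CPM were computed here. P-values were adjusted by Benjamini-Hochberg over all 11303 genes, and thresholds were those of the study. The fits were tested on simulated data.

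The members and all gene lists were chosen with earlier results of these data known. Every member with an entry was named, with per-library values for those past the thresholds in E2+ TNFα relative to TNFα or E2 or in the interaction and for the transcription factors. IFNAR2 was named after its values were seen, and the means of the other receptors are given beside it. In the pathway lists, genes past the thresholds in comparisons without vehicle were named. Copies and overlaps were measured as the share of 50-base windows of the exons found in other genes. Promoters were taken from RefSeq GRCh38.p14. Same-numbered libraries of different groups deviated with correlations of -0.48 to 0.47, over 0.1 in 5 of 18 pairs, so numbers were not treated as pairs. Alternatives were DESeq2 (1.42.0) size factors and test, library size only, other count filters, a replicate block, an RUV factor from 20 housekeeping genes, removal of GC and length trends (loess span 0.3), the likelihood ratio test, a fit to the compared groups only, and leaving out each library.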

Additional observations from a re-analysis of the deposited data

Results flagged for a closer look

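For 15 of the 39 genes, the change with TNFα differed between cells with and without E2 in the test of that difference, with 10 positive and 5 negative (25.6% and 12.8% of them). Over all tested genes 22.5% were positive and 9.29% negative, so these shares are near the background and are not a result about these genes. All rest on the vehicle libraries. The interaction was 1.82 for IFIH1, 1.72 for DDX58, 1.98 for EIF2AK2, 1.71 for IFIT1, 2.42 for IFIT2, 1.82 for IFIT3, 1.75 for IFIT5, 1.82 for HERC5, 2.25 for SP100 and 2.78 for PARP14. It was -1.66 for UBE2L6, -2.53 for IRF1, -2.04 for IFITM1, -1.94 for IFITM3 and -2.09 for IFI6. PARP14 and IFIH1 passed the filter only through groups in which they are high, so their values are descriptions. The interaction over all tested genes had a Spearman correlation of -0.689 with exon GC content, and the part of GC content in each value was not tested apart from the setting with its trend removed.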

How the results depend on the processing

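In E2+ TNFα relative to TNFα, 10 of the 11 genes past the thresholds stayed past them in all 16 alternatives, and ISG20 missed the fold threshold in 3 (1.43 with the RUV factor, 1.44 without the second TNFα replicate and 1.44 without the third E2+ TNFα replicate). OAS1 and OAS2, which are among the 11, are descriptions. IRF1 stayed past the thresholds in every comparison in which it was past. When each library was omitted in turn, 10 to 11 genes passed in this comparison, 1 to 1 in E2+ TNFα relative to E2, 13 to 14 in E2 relative to vehicle, 7 to 11 in TNFα relative to vehicle, 9 to 16 in E2+ TNFα relative to vehicle and 12 to 17 for the interaction. The replicate block gave 11, 1, 14, 8, 11 and 15 genes in the same order, and changed no call of a member.

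With GC and length trends removed, the genes past the thresholds numbered 8 in E2 relative to vehicle (8 higher and 0 lower, 7.25% and 6.64% of all tested genes), 3 in TNFα relative to vehicle (2 and 1, 4.94% and 5.55%), 8 in E2+ TNFα relative to vehicle (8 and 0, 5.76% and 5.19%) and 3 for the interaction (1 and 2, 7.25% and 6.43%). With the RUV factor the interaction gave 5 (1 and 4, 6.84% and 5.96%). Library size alone gave 6 higher and 6 lower in E2 relative to vehicle (5.56% and 26.4% of all tested genes). It gave 1 and 10 in TNFα relative to vehicle (4.53% and 23.1%) and 7 and 4 in E2+ TNFα relative to vehicle (5.39% and 21.5%). Interactions were 12 positive and 4 negative (27.1% and 5.19%). The median of all genes was -0.38, -0.19, -0.26 and 0.31 in this order. The RUV factor gave 9 higher and 2 lower in E2 relative to vehicle (9.95% and 9.15% of all tested genes). It gave 4 and 3 in TNFα (5.24% and 5.11%) and 9 and 1 in E2+ TNFα (9.21% and 7.41%), both relative to vehicle.

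Signs turned as follows, and the cause was not tested. A turned sign is not by itself a detected change, since several of these values had an adjusted p above 0.1. With the RUV factor, E2 relative to vehicle came to 2.29 for DDX58, 0.51 for EIF2AK2, 3.68 for IFIT2, 4.36 for IFIT5, 1.51 for HERC5, -0.00948 for USP18, -1.92 for IRF7, 0.51 for SP100 and 0.0793 for PARP14. TNFα relative to vehicle came to 0.39 for EIF2AK2, 1.90 for IFIT1, 1.03 for IFIT2, 0.0836 for IFIT3, 3.00 for IFIT5, 0.78 for HERC5, -2.02 for IRF7 and 0.12 for SP100. E2+ TNFα relative to vehicle came to 2.40 for DDX58, 3.44 for IFIT2, 3.96 for IFIT5, 1.31 for HERC5 and 0.34 for PARP14, and the interaction to -1.33 for DDX58, -0.16 for EIF2AK2, -1.91 for IFIT1, -1.26 for IFIT2, -0.19 for IFIT3, -3.40 for IFIT5, -0.97 for HERC5 and 2.15 for IRF7. With GC and length trends removed, E2 relative to vehicle came to 0.11 for EIF2AK2 and 0.23 for SP100, TNFα relative to vehicle to 0.28 for EIF2AK2, 0.40 for IFIT5 and 0.0191 for SP100, and the interaction to -0.34 for DDX58, -0.21 for EIF2AK2, -0.81 for IFIT5 and -0.0264 for SP100. Depth limits genes with few counts, IFNL1 and the 6 untested genes among them.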
